A study of Ctenopharyngodon idella and Danio rerio with 13 samples.

Results

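Sperm made by a surrogate was set against sperm of the species whose germ cells the surrogate carried. The comparison takes in 8 of the 13 libraries of the study, chosen by their labels: 3 libraries of GSCT sperm (germline stem cell transplantation) and 5 libraries of grass carp sperm. GSCT sperm came from 3 zebrafish that the labels give as GSCT fish of the genotype surrogate reproduction, and the study's title names the transplanted cells as female germline stem cells and the product as all-X grass carp sperm. Grass carp sperm came from 5 wild-type grass carp (Ctenopharyngodon idella), and the labels give both kinds of library under that species. The labels do not state the age of any fish, the strain of the host, or whether the host kept germ cells of its own. The labels count as many fish as libraries, so each library stands for a different fish. The series was designed to ask whether the sperm are genetically alike. Each library was made from a small volume of diluted sperm by direct full-length amplification of polyadenylated RNA with a kit meant for single cells, and the deposited values are read counts per gene.

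In surrogate reproduction, germline stem cells of a donor species settle in the gonad of a host and complete gamete formation there, so that donor-derived sperm matures among host somatic cells. In fish, transplanted female germ cells can form sperm when the host gonad is a testis. Sperm carry a small store of RNA left from spermatogenesis, and their flagellum is built on an axoneme whose dynein arms are assembled in the cytoplasm by dedicated chaperones.

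Total counts on named genes ran from 376926 (replicate 3) to 2602370 in GSCT and from 1335167 (replicate 4) to 5471312 in grass carp libraries. A count of 3, taken as the floor, equals 1.15 to 7.96 CPM (counts on a gene scaled to the library's counts on named genes) in GSCT and 0.548 to 2.25 CPM in grass carp libraries. Named nuclear protein-coding genes took 62.1 to 63.3% of the counts in GSCT and 66.4 to 68.2% in grass carp libraries, and mitochondrial genes took 0.618 to 1.79% in GSCT against 0.0113 to 0.0278% in grass carp. Each GSCT library had counts on at least 16239 of the 16477 named nuclear protein-coding genes, and each grass carp library on at least 16458. Exact two-sided permutation tests gave p = 0.0893 for the lower totals and p = 0.125 for the fewer detected genes of GSCT libraries, 0.125 each after adjustment over the 2 tests, where 0.0179 is the smallest p the design allows. Without grass carp replicate 4 the exact p was 0.0286 for both. Without GSCT replicate 3, the shallowest library, the exact p was 0.286 for totals and 0.905 for detected genes, whose difference shrank to -0.5. Across these genes, the rank correlation of count with gene span was 0.651 to 0.707 in GSCT and 0.678 to 0.745 in grass carp libraries. All tested markers of sperm, germ cells, oocytes, testis somatic cells, blood, leukocytes, epithelium and muscle had counts in both groups. The summed level of 9 sperm and flagellum markers was 469 to 544 CPM in GSCT against 489 to 568 CPM in grass carp libraries, and that of 6 oocyte markers was 106 to 135 CPM in GSCT against 101 to 109 CPM in grass carp. The sums of 7 testis somatic markers were 183 to 187 CPM in GSCT against 174 to 189.9 CPM in grass carp, and those of 7 epithelium and muscle markers 135 to 142 CPM in GSCT against 131 to 171 CPM in grass carp. Sums of 6 leukocyte markers were 231 to 241 CPM in GSCT against 241 to 458 CPM in grass carp. For 2 lists all GSCT sums lay below all grass carp sums: 5 blood markers at 117 to 122 CPM in GSCT against 139 to 154 CPM in grass carp, and 8 germ cell markers at 297 to 316 CPM in GSCT against 372 to 576 CPM in grass carp. Much of the gap in germ cell markers came from tdrd6, which overlaps pla2g7 and averaged 49.7 CPM in GSCT against 147 CPM in grass carp. Lower on average in GSCT than in grass carp were also ddx4 (65.9 against 73.5 CPM), dazl (19.1 against 28.4) and dmc1 (15.9 against 20.7). So were sycp1 (26.5 against 44.5 CPM) and sycp3 (15.7 against 27.2). The germ cell markers piwil1 and piwil2 went the other way. They averaged 37.7 and 74.4 CPM in GSCT against 31.6 and 63.2 CPM in grass carp, and neither was called. Of the blood markers hbba1 also went the other way, at 6.78 CPM in GSCT against 5.06 CPM in grass carp, and the rest were lower in GSCT. The sums are of plain CPM, in which 12.0% of named nuclear protein-coding genes were lower in all GSCT libraries and 3.93% higher. Among the markers of all these lists, tdrd6, sycp1 and alas2 were called, each lower in GSCT sperm. What share of the reads came from mature mRNA was not tested.

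Over all genes tested with edgeR's quasi-likelihood test, 3.49% were higher and 0.849% lower in GSCT sperm, together 4.34%. Of 16419 named nuclear protein-coding genes tested, 478 (2.91%) passed a Benjamini-Hochberg adjusted p under 0.05, 291 (1.77%) of them higher and 187 (1.14%) lower in GSCT sperm. The rises were many and small: their median log2 fold change was 0.72, and none of the 291 exceeded 2. The falls included fewer but larger changes: their median size was 0.80, and 12 of the 187 exceeded 2. Genes that exceeded a log2 fold change of 1 in size numbered 37 among the rises and 63 among the falls. All 3 GSCT libraries lay above all 5 grass carp libraries for 258 of the rises and below them for 175 of the falls. Among the 16419 named nuclear protein-coding genes, called or not, such separation was found upward for 645 (3.93%) and downward for 1976 (12.0%). Separation was judged on plain CPM, without the scaling factors of the fit. Named nuclear protein-coding genes had a lower median CPM in every GSCT library (29.2 to 30.7) than in any grass carp library (32.2 to 33.6). Over the named nuclear protein-coding genes tested the median log2 fold change was -0.05, and over all genes tested it was -0.01. In these bulk samples, fewer cells of a type and less RNA per cell cannot be told apart.

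**Figure D1:**
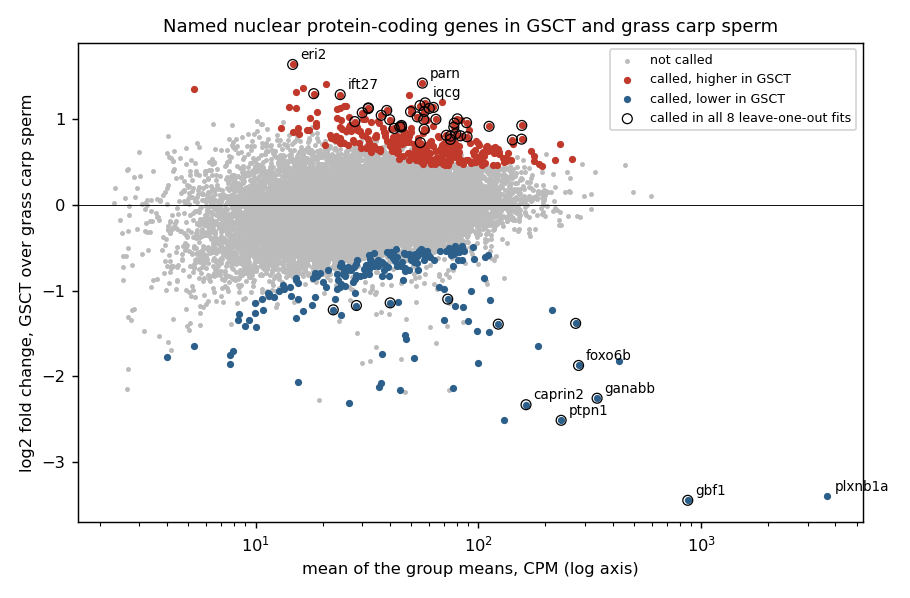
Log2 fold change, GSCT over grass carp sperm, against the mean of the group means in CPM (log axis), 1 point per named nuclear protein-coding gene. Red points are the 291 genes called higher, blue points the 187 called lower, and circled points the 51 genes called in all 8 fits that leave out 1 library. The falls reach -3.45 (gbf1) and the rises 1.64 (eri2).

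The split between rises and falls moved with the scaling. With TMM factors 60.9% of the calls were rises. With library size alone 186 genes were higher and 337 lower, so that 35.6% were rises. In a fit on named nuclear protein-coding genes alone 303 were higher and 100 lower, so that 75.2% were rises. Library size alone shifted the median over these genes to a log2 value of -0.12.

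Most calls needed GSCT replicate 2, without which 416 of the 478 were lost. When each of the 8 libraries was left out in turn, 40 rises and 11 falls were called in every fit. Without GSCT replicate 2, 47 rises and 17 falls were called. Without GSCT replicate 1 there were 143 rises and 86 falls, and without GSCT replicate 3, the shallowest library, 184 rises and 91 falls. Leaving out a grass carp library gave 173 to 395 rises and 121 to 261 falls, with the lowest counts without replicate 5. The 51 genes that held in every leave-one-out fit did not overlap between the groups. In fits of all 8 libraries each was also called with library size alone and by DESeq2. When the leave-one-out fits themselves used library size alone, 21 rises and 13 falls were called in every fit. With robust dispersion estimates 1 of the 40 rises and 7 of the 11 falls lost the call. With every library thinned to the total of GSCT replicate 3, 24 of the 38 rises still tested and 9 of the 11 falls were called, and the falls that lost the call were cwc15 and trappc10.

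**Figure D2:**
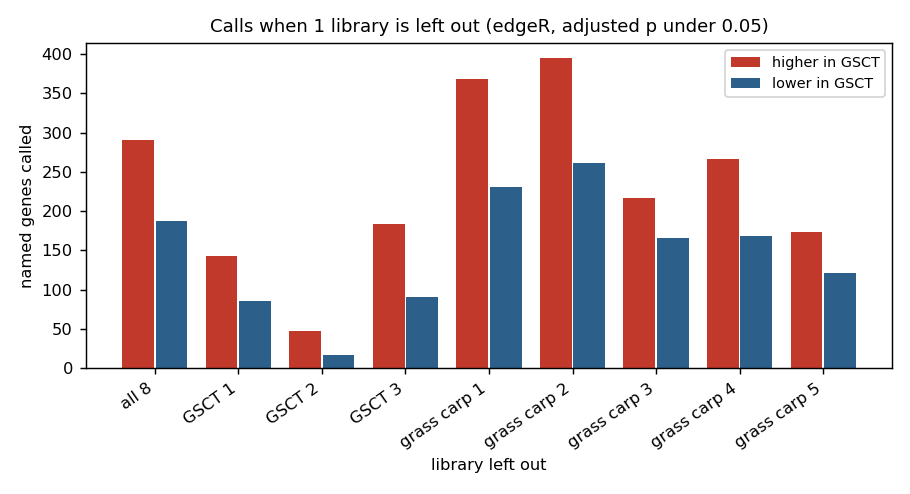
Number of named nuclear protein-coding genes called higher (red) and lower (blue) in GSCT sperm with all 8 libraries and with each library left out, by edgeR at an adjusted p under 0.05. Calls drop to 47 higher and 17 lower without GSCT replicate 2.

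Among the falls that held were genes of the secretory pathway. Ganabb encodes the catalytic subunit of glucosidase II, which trims glucose from new glycoproteins in the endoplasmic reticulum. Its level, given here and below for replicates in order, was 129, 87.5 and 133 CPM in GSCT libraries, against 621, 393, 235, 378 and 1201 CPM in grass carp libraries. All GSCT values lay below the lowest grass carp value, and the log2 fold change was -2.26 ± 0.39 (SE; adjusted p = 0.0016). Trappc10, a subunit of a tethering complex of the Golgi, stood at 22.3, 14.97 and 7.96 CPM in GSCT libraries, against 35.2, 41.8, 45.1, 43.4 and 42.8 CPM in grass carp libraries, a log2 fold change of -1.17 ± 0.20 (SE; adjusted p = 0.0015). The 7.96 CPM of trappc10 in GSCT replicate 3 equals 3 counts, the floor. Gbf1, which activates ARF GTPases at the Golgi, was 176, 109 and 135 CPM in GSCT libraries, against 2856, 428, 831, 2284 and 1604 CPM in grass carp libraries, and its log2 fold change was -3.45 ± 0.47 (SE; adjusted p = 0.00012). No GSCT library of gbf1 reached the lowest grass carp library, and the grass carp libraries themselves ranged widely. Of 451 genes in the class of membrane traffic and ARF and Rab GTPases, 7 were higher and 7 lower (1.55% each). Over all named nuclear protein-coding genes 1.77% were higher and 1.14% lower.

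Foxo6b, a forkhead transcription factor, was at 141, 85.1 and 127 CPM in GSCT libraries, against 633, 207, 325, 372 and 689 CPM in grass carp libraries, a log2 fold change of -1.87 ± 0.32 (SE; adjusted p = 0.0012). Its paralog foxo6a moved the other way, at 63.4, 67.8 and 74.3 CPM in GSCT libraries, against 47.7, 42.9, 42.8, 49.4 and 37.1 CPM in grass carp libraries, a log2 fold change of 0.69 ± 0.14 (SE; adjusted p = 0.0056). Both genes separated the groups, in opposite directions, and the call of foxo6a was lost without GSCT replicate 2. The other 5 foxo genes tested were not called. Ptpn1, a phosphatase that acts on the insulin receptor in mammals, had 73.8, 56.1 and 76.9 CPM in GSCT libraries, against 562, 269.8, 159.6, 409.7 and 607 CPM in grass carp libraries, a log2 fold change of -2.51 ± 0.35 (SE; adjusted p = 0.00014). Grb10b, an adaptor of insulin and growth factor receptors, was at 209, 178 and 157 CPM in GSCT libraries, against 408, 316, 362, 949 and 1346 CPM in grass carp libraries, a log2 fold change of -1.82 ± 0.39 (SE; adjusted p = 0.0086). The GSCT values of grb10b were all below the grass carp values, and its call was lost without GSCT replicate 2 or 3. Prkcaa, a protein kinase C, was at 58.02, 53.8 and 58.4 CPM in GSCT libraries, against 312, 118, 136, 169 and 93.8 CPM in grass carp libraries, a log2 fold change of -1.49 ± 0.30 (SE; adjusted p = 0.006), with the call lost without GSCT replicate 2 and with robust dispersion (adjusted p = 0.166). Protein and lipid phosphatases as a class gave 5 rises and 1 fall among 218 tested, 2.29% and 0.459%. The class of protein kinases gave 4 rises and 7 falls among 375 tested, 1.07% and 1.87%. Over all named nuclear protein-coding genes the shares were 1.77% and 1.14%. Formed by gene symbol, the kinase class leaves out sik3 and srpk2, described below.

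Several RNA regulators fell. Caprin2, an RNA-binding protein, was at 60.7, 46.3 and 47.8 CPM in GSCT libraries, against 393, 108, 133, 289 and 456 CPM in grass carp libraries, a log2 fold change of -2.33 ± 0.39 (SE; adjusted p = 0.0012). Qkia, a paralog of the splicing and RNA stability factor quaking, was at 48.03, 49.1 and 31.8 CPM in GSCT libraries, against 93.2, 126, 81.5, 95.9 and 117 CPM in grass carp libraries, a log2 fold change of -1.10 ± 0.18 (SE; adjusted p = 0.0008). Both genes were lower in each GSCT library than in any grass carp library. Eif4ebp3l, which binds the cap-binding factor eIF4E and restrains translation, was at 21.1, 25.3 and 29.2 CPM in GSCT libraries, against 42.4, 56.98, 63.8, 53.9 and 59.04 CPM in grass carp libraries, a log2 fold change of -1.14 ± 0.18 (SE; adjusted p = 0.00058). The other 2 eIF4E-binding protein genes tested were not called. Cwc15, a component of the spliceosome, was at 11.5, 15.4 and 10.6 CPM in GSCT libraries, against 32.4, 23.8, 35.5, 34.5 and 34.5 CPM in grass carp libraries, a log2 fold change of -1.22 ± 0.22 (SE; adjusted p = 0.002). Ddx6, an RNA helicase of P-bodies, had 21.9, 26.7 and 34.5 CPM in GSCT libraries, against 36.5, 62.7, 79.4, 73.4 and 45.7 CPM in grass carp libraries, a log2 fold change of -1.13 ± 0.24 (SE; adjusted p = 0.0098), but its call was lost without GSCT replicate 1 or 2. Of 478 genes in the class of RNA binding, splicing and translation, 5 rose and 7 fell, shares of 1.05% and 1.46%. Over all named nuclear protein-coding genes the shares were 1.77% and 1.14%. Formed by gene symbol, the RNA class leaves out cwc15, and also eri2 and parn, described below.

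Genes of the centrosome and nuclear envelope completed the falls that held. Pcnt encodes pericentrin, the scaffold of the centrosome, and was at 158, 135 and 146 CPM in GSCT libraries, against 559, 188, 353, 481 and 419.6 CPM in grass carp libraries, a log2 fold change of -1.38 ± 0.25 (SE; adjusted p = 0.0024). Sun1a encodes a protein of the inner nuclear membrane that links the nucleus to the cytoskeleton and, in mice, tethers telomeres in meiosis. It was at 66.9, 68.3 and 55.7 CPM in GSCT libraries, against 131, 106, 166, 298 and 210.2 CPM in grass carp libraries, a log2 fold change of -1.39 ± 0.26 (SE; adjusted p = 0.0029). For both genes the highest GSCT library lay under the lowest grass carp library.

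**Figure D3:**
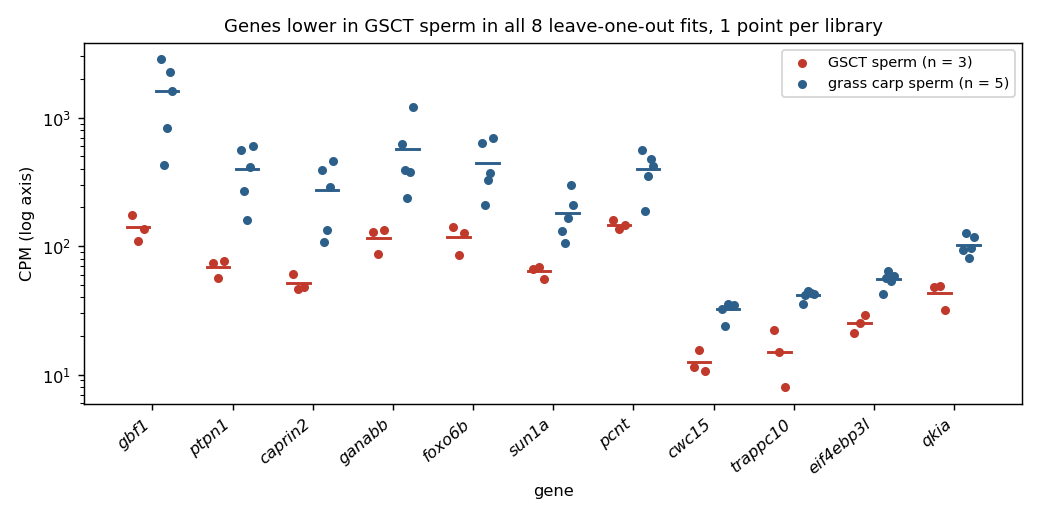
CPM on a log axis in each library for the 11 genes lower in GSCT sperm in all 8 leave-one-out fits, with GSCT libraries (red, n = 3) left of grass carp libraries (blue, n = 5) and a line at each mean. GSCT points lie below grass carp points for each gene, and the grass carp points of gbf1 run from 428 to 2856 CPM.

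The largest falls were of genes whose level also varied among the grass carp libraries. The 15 largest falls were taken among called genes without overlap and with at least 20 CPM on average in the higher group. They were gbf1, plxnb1a, pla2g7, ptpn1, caprin2, ier3, ganabb, ckba, ca9, tbca, edf1, foxo6b, smtla, grb10b and pex7. Of these, 12 were in the top 5% of named nuclear protein-coding genes by CPM per kb of gene span in grass carp sperm, against 2 in GSCT sperm. That describes genes picked for being lower in GSCT and tests nothing. The median ratio of the highest to the lowest library was 1.48 over 3 GSCT libraries and 4.25 over 5 grass carp libraries. Such a ratio grows with the number of libraries. For the largest rises it was 1.33 in GSCT and 2.15 in grass carp. In 10 of the 15 falls, grass carp replicates 1, 4 and 5 all lay above replicates 2 and 3. Ca9, a membrane carbonic anhydrase, shows the pattern at 30.4, 26.2 and 23.9 CPM in GSCT libraries, against 177, 61.4, 53.03, 130.3 and 213 CPM in grass carp libraries, a log2 fold change of -2.13 ± 0.40 (SE; adjusted p = 0.0035). Pex7, the receptor that imports a class of proteins into peroxisomes, was at 26.1, 14.03 and 31.8 CPM in GSCT libraries, against 120.2, 56.5, 36.2, 96.6 and 86.8 CPM in grass carp libraries, a log2 fold change of -1.79 ± 0.35 (SE; adjusted p = 0.0046). Both lost the call without GSCT replicate 2. Where edgeR estimated dispersion robustly, which gives hypervariable genes their own spread, 14 of the 15 lost the call, with adjusted p between 0.0616 and 0.274. Edf1 kept it. Among the 11 falls that held above, 7 lost the call in that fit, with adjusted p between 0.0616 and 0.127: gbf1, ptpn1, caprin2, ganabb, foxo6b, sun1a and pcnt.

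The largest rises that held were nucleases of RNA 3′ ends. Eri2, of the ERI family of 3′ exonucleases, was at 23.8, 21.05 and 21.2 CPM in GSCT libraries, against 11.9, 4.97, 7.36, 6.74 and 5.67 CPM in grass carp libraries, a log2 fold change of 1.64 ± 0.28 (SE; adjusted p = 0.0013). Parn, the poly(A)-specific ribonuclease that shortens the tails of mRNA and trims small RNA, was at 83.4, 79.98 and 76.9 CPM in GSCT libraries, against 39.5, 25.6, 34.2, 38.2 and 22.8 CPM in grass carp libraries, a log2 fold change of 1.42 ± 0.17 (SE; adjusted p = 2.2e-05). For both genes every GSCT library exceeded every grass carp library. Pus7, a pseudouridine synthase that modifies RNA, was at 53.8, 72.03 and 79.6 CPM in GSCT libraries, against 36.7, 19.1, 31.1, 38.9 and 19.4 CPM in grass carp libraries, a log2 fold change of 1.29 ± 0.22 (SE; adjusted p = 0.0012), and its call was lost without GSCT replicate 2. Srpk2, a kinase of splicing factors, was at 80.7, 75.8 and 101 CPM in GSCT libraries, against 56.7, 23.3, 41.1, 50.9 and 27.8 CPM in grass carp libraries, a log2 fold change of 1.14 ± 0.22 (SE; adjusted p = 0.0046), but its adjusted p was 0.059 with robust dispersion. Pus7 and srpk2 are adjacent genes, as are parn and txndc11. The grass carp values of eri2, parn, pus7 and srpk2 were all lowest in replicates 2 and 5. Many rises below share this order, among them sik3, tek, srebf2 and hsp70.3, while ift27 and wbp2nl do not. The rises are therefore not independent of each other across libraries. What lies behind the shared order was not tested.

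Several genes of cilium and flagellum assembly rose. Of 174 tested members, 5 (2.87%) were higher and 1 (0.575%) lower, against 1.77% and 1.14% over all named nuclear protein-coding genes. The median log2 fold change was -0.05 in the class and -0.05 over all named nuclear protein-coding genes. Dnaaf2, spag1b and dnaaf1 belong to the cytoplasmic factors that assemble dynein arms. Dnaaf2 was at 59.2, 85.1 and 66.3 CPM in GSCT libraries, against 43.8, 32.4, 36.6, 34.5 and 33.8 CPM in grass carp libraries, a log2 fold change of 1.03 ± 0.16 (SE; adjusted p = 0.00044). Spag1b was at 33.8, 36.5 and 39.8 CPM in GSCT libraries, against 19.2, 17.5, 21.5, 19.5 and 17.9 CPM in grass carp libraries, a log2 fold change of 0.98 ± 0.17 (SE; adjusted p = 0.0014). Dnaaf1 was at 47.3, 38.8 and 82.2 CPM in GSCT libraries, against 27.4, 28.8, 30.6, 24.7 and 27.2 CPM in grass carp libraries, a log2 fold change of 0.90 ± 0.19 (SE; adjusted p = 0.0073), with replicate 3 the highest GSCT library. These 3 were the called genes among 16 dynein arm assembly factors tested, a list drawn up after the values were seen, whose median was -0.01. Ift27, a small GTPase of intraflagellar transport, was at 36.1, 36.5 and 26.5 CPM in GSCT libraries, against 17.98, 13.1, 11.9, 15.7 and 16.1 CPM in grass carp libraries, a log2 fold change of 1.29 ± 0.20 (SE; adjusted p = 0.00044). Iqcg, a component of the dynein regulatory complex that the class did not hold, was at 71.1, 87.5 and 79.6 CPM in GSCT libraries, against 41.6, 30.1, 44.2, 32.95 and 31.3 CPM in grass carp libraries, a log2 fold change of 1.19 ± 0.15 (SE; adjusted p = 6.4e-05). All GSCT libraries of these genes lay above all grass carp libraries. Cep295, a centriole protein, was at 68.8, 83.3 and 98.2 CPM in GSCT libraries, against 49.6, 36.1, 54.9, 60.7 and 45.1 CPM in grass carp libraries, a log2 fold change of 0.79 ± 0.16 (SE; adjusted p = 0.0066), with the call lost without GSCT replicate 2. The member that fell was cep43, a centriolar protein, at 37.3, 26.2 and 18.6 CPM in GSCT libraries, against 45.7, 61.2, 49.3, 39.7 and 61.8 CPM in grass carp libraries, a log2 fold change of -0.73 ± 0.20 (SE; adjusted p = 0.039). Its call was lost without GSCT replicate 2 or 3 or grass carp replicate 5, and in the fit on named protein-coding genes alone. Wbp2nl, a protein of the sperm head in mammals, was at 23.1, 25.3 and 29.2 CPM in GSCT libraries, against 9.77, 11.2, 13.2, 11.2 and 7.86 CPM in grass carp libraries, a log2 fold change of 1.30 ± 0.22 (SE; adjusted p = 0.0014).

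**Figure D4:**
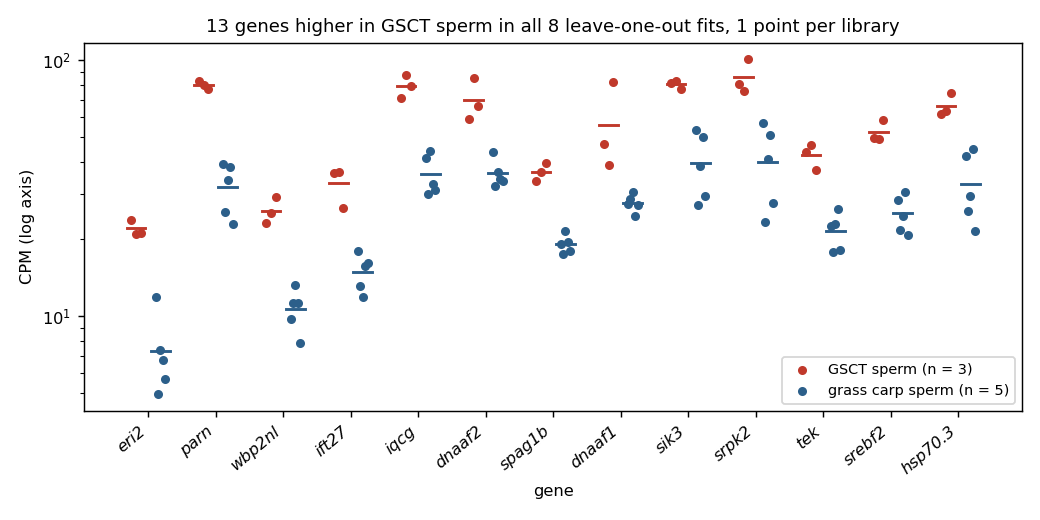
CPM on a log axis in each library for 13 of the 40 genes higher in GSCT sperm in all 8 leave-one-out fits, chosen to cover the functions described, with GSCT libraries (red, n = 3) left of grass carp libraries (blue, n = 5) and a line at each mean. GSCT points lie above grass carp points for each gene.

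Sik3, a salt-inducible kinase, was at 81.8, 83.3 and 76.9 CPM in GSCT libraries, against 53.4, 27.2, 38.7, 50.2 and 29.4 CPM in grass carp libraries, a log2 fold change of 1.13 ± 0.19 (SE; adjusted p = 0.0012), and was among the rises that held. Tek, the angiopoietin receptor of blood vessels, was at 43.8, 46.8 and 37.1 CPM in GSCT libraries, against 22.5, 17.8, 23.02, 26.2 and 18.1 CPM in grass carp libraries, a log2 fold change of 1.13 ± 0.17 (SE; adjusted p = 0.00045). Neither gene overlapped between the groups. Srebf2, a transcription factor that drives cholesterol synthesis, was at 49.6, 49.1 and 58.4 CPM in GSCT libraries, against 28.3, 21.7, 24.7, 30.7 and 20.8 CPM in grass carp libraries, a log2 fold change of 1.11 ± 0.17 (SE; adjusted p = 0.0004). Lamp1a, a membrane protein of lysosomes, was at 39.96, 49.6 and 58.4 CPM in GSCT libraries, against 26.8, 20.4, 23.97, 26.96 and 21.9 CPM in grass carp libraries, a log2 fold change of 1.05 ± 0.17 (SE; adjusted p = 0.00086). Ackr4b, an atypical chemokine receptor, was at 64.6, 73.4 and 90.2 CPM in GSCT libraries, against 38.9, 37.6, 31.7, 24.7 and 34.00 CPM in grass carp libraries, a log2 fold change of 1.16 ± 0.16 (SE; adjusted p = 0.00012). Each of these levels was higher in all 3 GSCT libraries than in any grass carp library.

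Ion channel and receptor genes were also among the rises. Of 363 channel and ionotropic receptor genes, 12 (3.31%) were higher and 3 (0.826%) lower. Over all named nuclear protein-coding genes 1.77% were higher and 1.14% lower. Nicotinic acetylcholine receptor subunits, a family picked after its values were seen, gave 3 of the rises among 23 subunits tested. They were chrna3, chrnb4 and chrna10a, of which chrna3 and chrnb4 are adjacent genes. Chrnb4 was at 49.95, 45.8 and 61.02 CPM in GSCT libraries, against 24.2, 22.2, 28.9, 42.7 and 20.3 CPM in grass carp libraries, a log2 fold change of 1.00 ± 0.20 (SE; adjusted p = 0.0057). Chrna10a was at 71.1, 87.9 and 90.2 CPM in GSCT libraries, against 45.5, 61.9, 38.7, 47.9 and 49.7 CPM in grass carp libraries, a log2 fold change of 0.81 ± 0.16 (SE; adjusted p = 0.0048), with the call lost without GSCT replicate 2. Chrna3 had a log2 fold change of 0.87 ± 0.19 (SE; adjusted p = 0.013), lost without GSCT replicate 1 or 2. The median over the 23 subunits was 0.00. Cnga2a, a cyclic nucleotide-gated channel subunit, was at 55.3, 57.5 and 63.7 CPM in GSCT libraries, against 37.1, 26.1, 33.97, 29.96 and 30.3 CPM in grass carp libraries, a log2 fold change of 0.93 ± 0.15 (SE; adjusted p = 0.00087). Pkd2l1, a polycystin family channel, was the largest fall of the class at 15.8, 13.6 and 7.96 CPM in GSCT libraries, against 28.3, 31.9, 30.8, 37.4 and 50.4 CPM in grass carp libraries, a log2 fold change of -1.29 ± 0.25 (SE; adjusted p = 0.0043), lost without GSCT replicate 2. Its value in GSCT replicate 3 was at the floor of 3 counts. Of 321 G protein-coupled receptors, 8 (2.49%) were higher and 1 (0.312%) lower. Gpr78a, an orphan receptor, was at 48.03, 56.1 and 71.6 CPM in GSCT libraries, against 34.2, 30.3, 30.9, 23.97 and 31.8 CPM in grass carp libraries, a log2 fold change of 0.91 ± 0.16 (SE; adjusted p = 0.0018). Gprc5ba was at 173, 200.2 and 209.6 CPM in GSCT libraries, against 113, 118, 125, 124 and 113 CPM in grass carp libraries, a log2 fold change of 0.77 ± 0.12 (SE; adjusted p = 0.0006). The P2Y purinergic receptors p2ry1, p2ry12 and p2ry13 had log2 fold changes of 0.73 ± 0.18 (SE; adjusted p = 0.026), 0.65 ± 0.16 (SE; adjusted p = 0.02) and 0.64 ± 0.15 (SE; adjusted p = 0.019). They were among 7 P2Y genes tested, a family also picked after its values were seen, and p2ry12 and p2ry13 are adjacent genes. The other 4 were not called and ranged in log2 fold change from -0.30 (p2ry4) to 0.68 (p2ry11). Without GSCT replicate 2 none of these P2Y calls remained, p2ry1 was also lost without grass carp replicate 5 and under DESeq2, p2ry12 without GSCT replicate 1 or 3, and p2ry13 without GSCT replicate 1.

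Matrix and junction genes followed. Of 218 genes of the extracellular matrix and its proteases, 9 (4.13%) were higher and 3 (1.38%) lower. Over all named nuclear protein-coding genes 1.77% were higher and 1.14% lower. Col5a3b, a fibrillar collagen, was at 119, 109 and 117 CPM in GSCT libraries, against 69.2, 51.8, 69.6, 72.7 and 47.9 CPM in grass carp libraries, a log2 fold change of 0.96 ± 0.15 (SE; adjusted p = 0.00045). Chst10, a sulfotransferase of carbohydrate chains, was at 83.8, 93.1 and 127 CPM in GSCT libraries, against 59.2, 52.5, 50.01, 54.7 and 52.5 CPM in grass carp libraries, a log2 fold change of 0.91 ± 0.14 (SE; adjusted p = 0.00054). Fkbp10a, a collagen chaperone of the endoplasmic reticulum, was at 162, 181 and 186 CPM in GSCT libraries, against 103, 128, 102, 103 and 105 CPM in grass carp libraries, a log2 fold change of 0.76 ± 0.13 (SE; adjusted p = 0.0012). All 3 genes held in every leave-one-out fit. The basement membrane collagens col4a2 and col4a3 and the fibronectin gene fn1b were called with smaller log2 fold changes of 0.53, 0.45 and 0.60, and these calls were lost with library size alone and without GSCT replicate 1 or 2. Gja8a, a gap junction connexin known from the lens, was at 91.8, 108 and 114 CPM in GSCT libraries, against 58.6, 63.8, 60.95, 64.4 and 60.9 CPM in grass carp libraries, a log2 fold change of 0.81 ± 0.13 (SE; adjusted p = 0.00056). Cell adhesion genes gave 9 rises (4.25%) and 3 falls (1.42%) among 212 tested, of which none held in every leave-one-out fit.

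Transcription and chromatin genes were mixed. Zinc finger and BTB proteins gave 12 rises (5.63%) and 4 falls (1.88%) among 213 tested, the highest share of rises of the 30 functional classes. Znf276 was the member that held, at 37.7, 41.2 and 55.7 CPM in GSCT libraries, against 23.1, 16.7, 23.97, 13.5 and 19.6 CPM in grass carp libraries, a log2 fold change of 1.14 ± 0.19 (SE; adjusted p = 0.0013). Developmental transcription factors gave 7 rises (1.45%) and 5 falls (1.04%) among 483. Over all named nuclear protein-coding genes the shares were 1.77% and 1.14%. Their member tcf20 was at 68.01, 68.8 and 90.2 CPM in GSCT libraries, against 34.98, 35.8, 46.6, 39.7 and 33.4 CPM in grass carp libraries, a log2 fold change of 1.00 ± 0.15 (SE; adjusted p = 0.00029). The class of histones and chromatin gave 3 rises (1.32%) and 1 fall (0.439%) among 228. L3mbtl1, a chromatin-compacting protein, was at 89.5, 90.7 and 101 CPM in GSCT libraries, against 61.4, 61.9, 58.3, 41.9 and 56.5 CPM in grass carp libraries, a log2 fold change of 0.77 ± 0.14 (SE; adjusted p = 0.0024).

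The rises that held also took in genes of stress, trafficking and protein turnover. Hsp70.3, an inducible heat shock chaperone, was at 61.5, 63.6 and 74.3 CPM in GSCT libraries, against 42.2, 25.9, 29.4, 44.9 and 21.6 CPM in grass carp libraries, a log2 fold change of 1.09 ± 0.20 (SE; adjusted p = 0.0029). The class of heat shock, immediate early and stress genes gave 6 rises (3.23%) and 1 fall (0.538%) among 186 tested. Over all named nuclear protein-coding genes 1.77% were higher and 1.14% lower. Atxn3, a deubiquitinating enzyme, was at 51.1, 51.9 and 74.3 CPM in GSCT libraries, against 28.5, 30.3, 30.6, 38.2 and 29.4 CPM in grass carp libraries, a log2 fold change of 0.91 ± 0.16 (SE; adjusted p = 0.0015). Dnm3b, a dynamin of membrane fission, was at 92.2, 116 and 92.9 CPM in GSCT libraries, against 62.1, 44.96, 61.1, 62.2 and 46.8 CPM in grass carp libraries, a log2 fold change of 0.96 ± 0.15 (SE; adjusted p = 0.00052). Both separated the groups. Pdpr, the regulatory subunit of pyruvate dehydrogenase phosphatase, was at 68.4, 72.03 and 79.6 CPM in GSCT libraries, against 51.01, 34.8, 41.3, 43.4 and 34.2 CPM in grass carp libraries, a log2 fold change of 0.89 ± 0.15 (SE; adjusted p = 0.0014). Mslnb, a mesothelin gene, was at 184, 201 and 223 CPM in GSCT libraries, against 116, 94.6, 123, 119.8 and 99.6 CPM in grass carp libraries, a log2 fold change of 0.93 ± 0.13 (SE; adjusted p = 0.00015). Other rises that held were mfrp, adprh, sidt2, dmxl1, lrfn2b, asb2b, pacsin1a, c1qtnf6b and cipcb, with log2 fold changes from 0.73 (cipcb) to 1.08 (mfrp).

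Genes of cell cycle, DNA replication and repair gave 3 rises (1.13%) and 6 falls (2.26%) among 265. Over all named nuclear protein-coding genes 1.77% were higher and 1.14% lower. Mcm4, a subunit of the replicative helicase, was at 16.9, 13.1 and 15.9 CPM in GSCT libraries, against 30.5, 27.7, 35.7, 29.2 and 32.7 CPM in grass carp libraries, a log2 fold change of -0.98 ± 0.19 (SE; adjusted p = 0.0052), lost without GSCT replicate 2. Of the 6 MCM2 to MCM7 helicase genes, mcm4 and mcm2 were called, and the others ranged in log2 fold change from -0.19 (mcm3) to 0.79 (mcm7, adjusted p = 0.088). The call of mcm2, at an adjusted p of 0.049, was lost whenever 1 of 7 of the libraries was left out, and under DESeq2.

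Classes of the germ line and of other cell types were small. Membership went by gene symbol, so a member, such as spata5l1 or epb41l2, need not be particular to that cell type. Of 62 genes of germ cells, meiosis and the piRNA pathway, 1 (1.61%) was higher and 2 (3.23%) lower. Over all named nuclear protein-coding genes the shares were 1.77% and 1.14%. The falls were tdrd6 and sycp1, at log2 fold changes of -1.47 ± 0.33 (SE; adjusted p = 0.014) and -0.64 ± 0.18 (SE; adjusted p = 0.045), and spata5l1 was higher at 0.68 ± 0.18 (SE; adjusted p = 0.033). Each of the 3 calls was lost when any GSCT library was left out, and under DESeq2, and that of tdrd6 also with robust dispersion (adjusted p = 0.212). Tdrd6 overlaps pla2g7 in span. Whether their counted exons overlap, and how reads common to both were counted, is not known. Of 49 blood and heme genes, 1 (2.04%) was higher and 2 (4.08%) lower. Epb41l2, a membrane skeleton protein, had a log2 fold change of 0.65 ± 0.17 (SE; adjusted p = 0.038), lost when any GSCT library was left out, under DESeq2 and with library size alone. Alas2, the erythroid enzyme that starts heme synthesis, had one of -1.22 ± 0.31 (SE; adjusted p = 0.029), lost without GSCT replicate 1 or 2. Tfr1b, a transferrin receptor, had one of -1.35 ± 0.37 (SE; adjusted p = 0.041), lost when any GSCT library was left out, under DESeq2 and with robust dispersion. Nuclear receptors (74 tested), oocyte and egg genes (20) and genes of apoptosis and autophagy (83) gave no call by edgeR. At an unadjusted p under 0.05 they had 11, 7 and 12 genes, and DESeq2 called 0, 0 and 1 of them in that order.

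**Figure D5:**
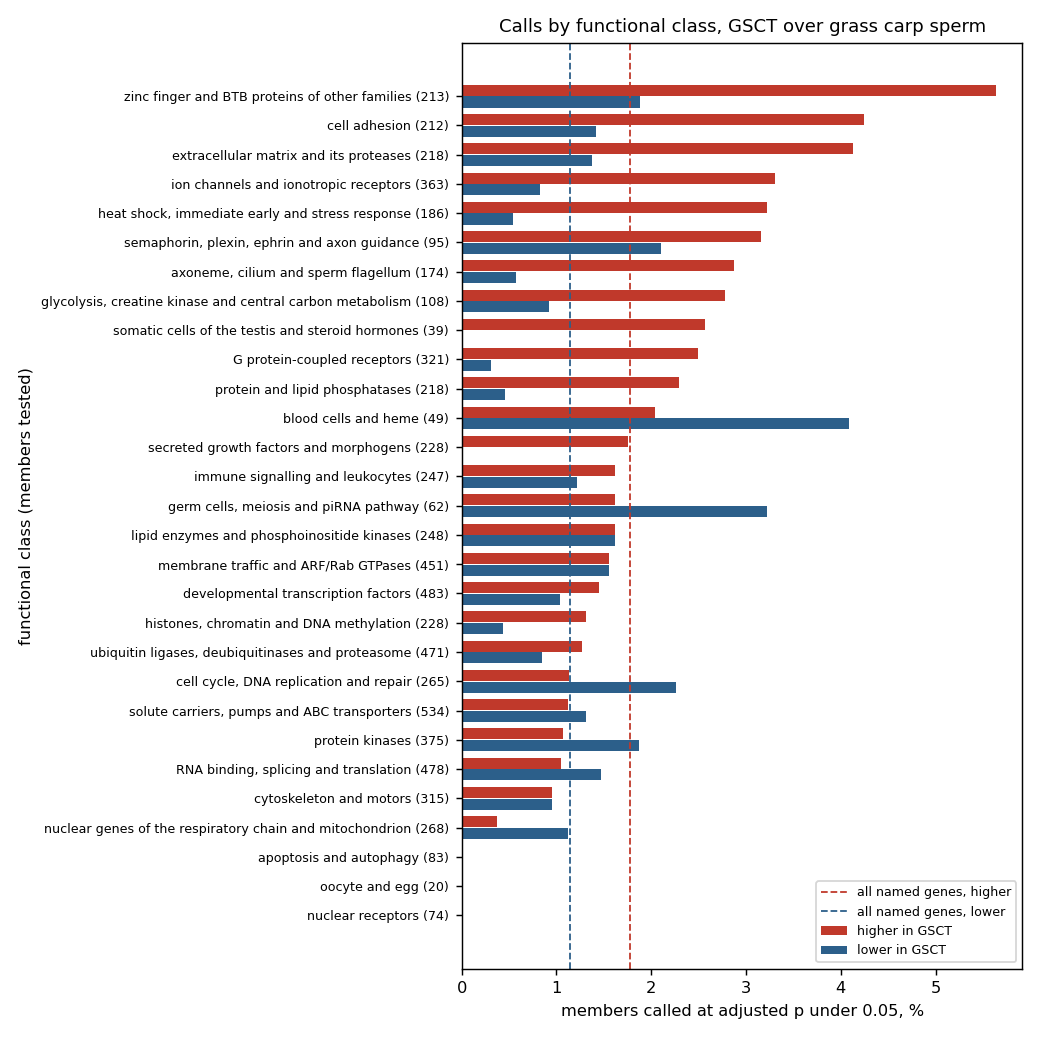
Share of tested members called higher (red) and lower (blue) in GSCT sperm for 29 of the 30 functional classes, with the number tested in brackets. Dashed lines mark the shares over all named nuclear protein-coding genes (1.77% higher, 1.14% lower). Zinc finger and BTB proteins had the highest share of rises at 5.63%.

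Many rises lay next to other rises. Of the 291, 90 (30.9%) had an adjacent called gene that was also higher, against 536 (3.36%) of the 15941 named nuclear protein-coding genes not called. Of the 187 falls, 19 (10.2%) had an adjacent called fall, against 302 (1.89%). Among named nuclear protein-coding genes there were 37 adjacent pairs called in 1 direction, 29 higher and 8 lower. They included chrna3 with chrnb4, p2ry12 with p2ry13, sik3 with sidt2, txndc11 with parn, olfm2b with col5a3b, and pus7 with both vwa5a and srpk2. The spans of 2 pairs overlapped, tdrd6 with pla2g7 and nedd1 with sh3gl3b. What the adjacent calls share was not tested.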

How the data were processed

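The authors deposited raw counts for 31338 entries in a separate file for each library. The submitters' processing notes name Subread, featureCounts, HISAT2, SAMtools, fastp, FastQC and CASAVA. Build, annotation, strand setting and treatment of reads with several matches were not stated in the sources used here. Overlapping genes, antisense pairs and near-identical copies are therefore uncertain. Unnamed entries, 24 in number and holding a mean of 0.404% of counts in GSCT and 0.0424% in grass carp libraries, were left out. Gene type, gene span and neighbours came from a RefSeq table of assembly HZGC01, whose order of entries matched the files. Groups follow the labels.

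All genes of the 8 libraries were fitted with edgeR 4.0.16 in R 4.3.3 (TMM factors, filter at a minimum count of 10 and a minimum total of 15, quasi-likelihood F test, Benjamini-Hochberg adjusted p under 0.05 over 28165 genes tested). That fit called 1223 genes (4.34%), and the text reports named nuclear protein-coding genes. The standard error of a log2 fold change was derived from the F statistic. CPM, counts scaled to the library's total on named genes, were computed here. DESeq2 1.42.0, other scalings, filters, thinning and left-out libraries were alternatives, and leaving out both shallowest libraries was chosen after seeing the data. The fit was also run on counts simulated with its own dispersion estimates, and no result here rests on that run. P-values measure the spread between libraries. Each library came from a different fish, so spread between fish and spread from sampling or amplification cannot be told apart. Floors cover counting error only, since reads amplified without molecular identifiers may repeat a molecule.

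Functional classes, 30 in number, were formed by gene symbol, and a gene may stand in several. A class does not hold every gene of its function: parn, sik3 and fkbp10a, among others, were missed. Class counts and shares cover listed members only. Eligible for naming were the 15 largest rises and falls among called genes whose groups did not overlap, with a mean of at least 20 CPM in the higher group. Up to 3 called genes of lowest p in each class were added without those limits. Every called gene of the flagellum, germ cell, oocyte, testis somatic, blood and immune classes was eligible too. Genes called in every leave-one-out fit come first. Which eligible genes are named, and the families of dynein assembly factors, nicotinic and P2Y receptors, foxo, MCM and eIF4E-binding proteins, were chosen after their values were seen. The members and lists were chosen with earlier results of these data known. Of the called genes 1, and of the classes 1, are not reported here, though totals still count them.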

Additional observations from a re-analysis of the deposited data

Results flagged for a closer look

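The 5 grass carp values of 109 called genes and of a few library measures, 116 groups in all, were searched for a library far from the others, and 14 were found. Chance gives about 1 in 20 such groups. Single high libraries were found for plxnb1a (21147 CPM in grass carp replicate 1, the next 4964), ier3 (104.0 CPM in replicate 5, the next 34.5), tbca (158 CPM in replicate 4, the next 50.03) and tfr1b (293 CPM in replicate 5, the next 104). Smaller high values were those of fkbp10a (128 CPM in replicate 2), atxn3 (38.2 CPM in replicate 4) and mcm2 (26.4 CPM in replicate 3). Single low libraries were found for txndc11 (10.5 CPM in replicate 2), spata5l1 (18.3 CPM in replicate 5), cwc15 (23.8 CPM in replicate 2), l3mbtl1 (41.9 CPM in replicate 4) and cdc42ep5 (5.99 CPM in replicate 4). Grass carp replicate 4 had the fewest detected named protein-coding genes of its group (16458), and replicate 3 the highest median level of these genes (33.6 CPM). Entries with no gene name, which no comparison used, held a mean of 0.404% of the counts in GSCT libraries, above the highest grass carp library at 0.138%.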

How the results depend on the processing

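No called gene reversed its direction under any alternative run in which it was tested. After thinning, 420 of the 478 were tested. All runs drew on the same counts, and most called genes did not overlap between the groups. A reversal was therefore unlikely from the start, and its absence says little. Counts of higher and lower named genes were 186 and 337 with library size alone (310 lower without overlap), 303 and 100 in the fit on named protein-coding genes alone (94 lower without overlap), 229 and 105 with DESeq2 (101 lower without overlap), and 62 and 73 after thinning to the smallest library (57 and 62 without overlap; 321 of all genes). Leaving out both shallowest libraries, an alternative chosen after seeing the data, left 142 and 70, none of them overlapping, and 671 of all genes. Leaving out 1 library gave 47 to 395 higher and 17 to 261 lower (47 to 360 and 17 to 246 without overlap), and 285 to 1534 of all genes, against 1223. Robust dispersion gave 379 and 232. With library size alone 21 genes were higher in every leave-one-out fit. The difference in total counts ran from -3222500 to -1839430 and that in detected genes from -114 to -0.5 over left-out libraries. The labels give replicate numbers only as biological repeats. Deviations of same-numbered libraries correlated at 0.0455, 0.0492 and -0.00859, and 1 of the 3 GSCT libraries correlated best with its own number. So few libraries cannot decide whether the numbers mark a pairing. The replicate block on replicates 1 to 3 gave 185 higher and 156 lower and 867 of all genes, against 109 and 73 (105 and 70 without overlap) and 581 of all genes without the block on the same libraries. The cause of these shifts was not tested, except that fewer libraries or reads enter the thinned and left-out fits. Depth limits low genes most, since 3 counts equal 7.96 CPM in GSCT replicate 3.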
